A study of Homo sapiens with 4 samples.

Results

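The human genome assembly hg38 holds, beside the chromosomes, contigs that carry sequence without a settled place: unlocalized contigs (names ending in _random, known chromosome but unknown position), unplaced contigs (names starting with chrUn) and alternate loci (names ending in _alt, a further version of a region that is also on the chromosome). Intervals on such contigs were taken by name alone from the 4 deposited peak lists, as every interval whose chromosome was not 1 to 22, X, Y or M. They numbered 865 of 26756 intervals over the 4 lists. Each interval carries 1 summit, the base with its strongest signal.

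The lists come from CUT&Tag, an assay of protein-bound or modified chromatin by sequencing, in the prostate cancer cell line 22RV1 (human), grown in RPMI-1640 with fetal bovine serum. Each of 4 libraries was a group of its own: cells given PD0332991 (palbociclib, an inhibitor of the kinases CDK4 and CDK6, which phosphorylate the retinoblastoma protein RB), the control of that inhibitor, cells given an siRNA against RB, and the control of that siRNA. The sources used here do not give the antibody target, the doses or the times. The protocols of the labels mention fixation, sonication, and both input and precipitated DNA. With 1 library a group, no difference below has a replicate check, no p-value between groups was computed, and every interval in brackets is a 95% interval that covers counting error only.

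The repeated genes for ribosomal RNA are the best known content of unplaced sequence. A 45S unit is transcribed by RNA polymerase I as 1 precursor, in the order 5′ external spacer, 18S, internal spacer 1, 5.8S, internal spacer 2 and 28S, and the 3 mature RNAs go into the ribosome. Copies of the unit lie in arrays on the short arms of the acrocentric chromosomes, and because they are nearly identical, a short read can fit many of them. Alternate loci share most of their sequence with the chromosome in the same way. The level at a contig therefore cannot be told apart from that of its copies elsewhere, and how the aligner shared such reads is not given in the sources used here.

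Levels are given in FPM, the treatment fragments solved at a summit per 1000000 treatment fragments of the library. The inhibitor control held 2458766 such fragments, PD0332991 1909342, the siRNA control 3479654 and RB siRNA 2423301. They held 34562, 9592, 36250 and 7641 background read ends in the same order. Where the background was the genome-wide one, even a base without any fragment (0) had a −log10 p of 2.61, 3.19, 2.63 and 3.24, so intervals could cover stretches with few or no fragments. Where intervals broke relative to background read ends was not tested. No list held a summit within 1000 bp of an end of the prostate lineage genes KLK3, KLK2, FOLH1 and HOXB13, so the labelled cell type could not be checked in these lists.

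The lists held 341 contig intervals on 146 contigs in the inhibitor control, 98 on 66 contigs after PD0332991, 347 on 169 contigs in the siRNA control and 79 on 51 contigs with RB siRNA. As a share of all intervals of the list these were 3.39% (3.04 to 3.76), 2.97% (2.41 to 3.60), 3.23% (2.90 to 3.58) and 3.0% (2.38 to 3.73), so the share was nearly equal while the count differed. Per 1000 background read ends, the 4 libraries held 9.87, 10.2, 9.57 and 10.3 contig intervals, so the counts moved with the background of the library. Alternate loci gave most of the intervals: 244 in the inhibitor control, 53 after PD0332991, 249 in the siRNA control and 48 with RB siRNA. Unlocalized contigs gave 50, 31, 45 and 18 intervals, and unplaced contigs 47, 14, 53 and 13. PD0332991 had the highest share of unlocalized intervals among its contig intervals, and 10 of its 31 were on chr14_GL000225v1_random. Counted by contig, unlocalized ones were 17 of 146 in the inhibitor control and 13 of 66 after PD0332991. They were 20 of 169 in the siRNA control and 9 of 51 with RB siRNA.

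**Figure D1:**
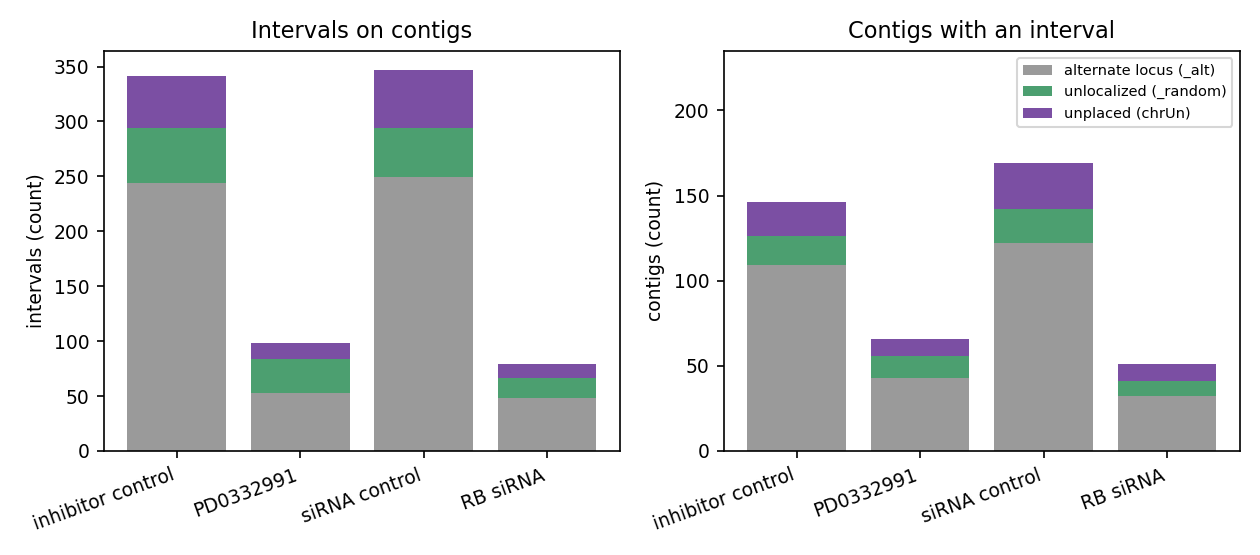
Bars show the number of contig intervals (left axis, count) and of contigs with an interval (right panel, count) in each of the 4 libraries, stacked by kind of contig. Both controls hold over 3 times the intervals of their treated library, and alternate loci make up the largest part of each bar.

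The median width of contig intervals was 72829 bp in the inhibitor control and 74203.5 bp after PD0332991. It was 79644 bp in the siRNA control and 104982 bp with RB siRNA. On the chromosomes the medians were larger, at 189308, 557470, 179718 and 718271 bp in the same order. Most contigs that were listed had an interval from base 1: 132 of 146, 66 of 66, 156 of 169 and 51 of 51. Where a contig was split, the gap was 1000 to 1500 bp wide in 65.6%, 71.9%, 71.9% and 67.9% of 195, 32, 178 and 28 gaps. Since each interval lists 1 summit, a lower summit inside a wide interval has no value, and a contig missing from a list has no value either and was not counted as 0.

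Contig summits were mostly low, with a median of 2.44 FPM in the inhibitor control, 6.02 after PD0332991, 1.72 in the siRNA control and 6.60 with RB siRNA. On the chromosomes the medians were 1.63, 4.19, 1.44 and 4.54 FPM. Both treated lists thus had the higher median on contigs and on chromosomes alike, and both had the fewer intervals. Of 130, 99, 36 and 59 summits with at least 100 FPM in the whole lists, 20, 10, 7 and 3 were on contigs. Of these, 18, 9, 6 and 2 were on 2 contigs with 45S genes. A deposited −log10 q of at least 2 was reached by 190, 33, 87 and 13 intervals of the whole lists. Contig intervals were 17, 6, 7 and 2 of them, of which 14, 5, 6 and 2 were on the same 2 contigs.

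The 2 contigs with 45S genes, chrUn_GL000220v1 and chr22_KI270733v1_random, held the highest contig summit of each list. Gene positions were read from RefSeq (GRCh38.p14). That table names no contig, so the placement of its genes on these 2 contigs rests on general knowledge of the assembly. On chrUn_GL000220v1, RNA45SN5 covers 105424 to 118780, with RNA18SN5 at 109078 to 110946, RNA5-8SN5 at 112024 to 112180 and RNA28SN5 at 113348 to 118417. The second copy there begins its 18S (RNA18SP3) at 153050 and its 5.8S (RNA5-8SP8) at 155996, 43972 bp after the first. On chr22_KI270733v1_random, RNA45SN4 covers 122273 to 135645, with RNA18SN4 at 125931, RNA5-8SN4 at 128877 to 129032 and RNA28SN4 at 130204 to 135280. Its second copy begins its 18S (RNA18SP4) at 171012 and its 5.8S (RNA5-8SP9) at 173956. The external spacer and the 28S of the second copies are not in the table and were read from the distance to the first copy.

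On chrUn_GL000220v1 the highest summit stood at 421 FPM (395 to 447; 1034 fragments) in the inhibitor control, 732 (694 to 771; 1397 fragments) after PD0332991, 552 (527 to 577; 1920 fragments) in the siRNA control and 945 (906 to 984; 2289 fragments) with RB siRNA. The 4 counting intervals do not overlap, and each treated library was above its own control. The lists held 13, 4, 8 and 2 intervals there. These summits ranked 13 in the inhibitor control and 7, 4 and 4 in the other lists by FPM among all intervals of their list.

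The position of that summit was not the same in all libraries. In the inhibitor control it lay at 156128, inside the 5.8S of the second copy, with 416 FPM at the matching base 112156 of the first copy. After PD0332991 and in the siRNA control it lay at 156275, in internal spacer 2, with 718 and 549 FPM at the matching base 112303. After RB siRNA it lay at 112303, 6879 bp from the 45S start. The summits at 112303 and 156275 are 43972 bp apart, the spacing of the 2 copies to the base, and so are 112156 and 156128. Within the unit, the inhibitor control on this contig thus stood 147 bp upstream of the place that the other 3 libraries shared. Other copies of the unit did not all show this. On chr22_KI270733v1_random PD0332991 and its control both had a 5.8S summit at 174087. In RNA45SN3, a 45S unit of chromosome 21, both had their highest summit at 8395738.

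The 5′ external spacer, which is cut from the precursor, held the next group of summits on this contig. At 106380, 956 bp from the 45S start, the inhibitor control had 366 FPM and the siRNA control 360 FPM. At the matching base 150352 they had 364 and 357 FPM, so both controls and both copies were nearly level there. After PD0332991 a summit stood at 150327 with 667 FPM, above both controls. After RB siRNA no summit was listed in the spacer, so the spacer has no value there.

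On chr22_KI270733v1_random the highest summit stood at 372 FPM (348 to 397) in the inhibitor control, 725 (688 to 765) after PD0332991, 389 (368 to 410) in the siRNA control and 617 (586 to 649) with RB siRNA. The lists held 13, 6, 3 and 2 intervals there. The intervals of the 2 controls overlap, and both treated libraries were above them. In 3 libraries the summit lay in the 5′ external spacer, at 123230, 123207 and 123205, which is 932 to 957 bp from the 45S start. After RB siRNA it lay at 131312, in RNA28SN4. The siRNA control had a 28S summit at the same place of the second copy, 9037 against 9039 bp from the start of its copy, with 341 FPM.

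The mature RNA genes of both contigs were seen best in the inhibitor control, whose intervals were the most broken up. There the 4 summits of the 5′ external spacer spanned 331 to 372 FPM, the 4 of 5.8S 213 to 421, the 8 of 28S 148 to 314 and the 4 of 18S 41.9 to 133. The 6 summits outside the 45S units spanned 11.8 to 71.6 FPM. Within that library all listed summits of 18S, the RNA of the small ribosomal subunit, were below those of the spacer, 5.8S and 28S. They all lay in the second copies, with a deposited −log10 q of 0 to 0.041. The first copies had no listed 18S summit and internal spacer 1 had none, so the lowest part of the unit is not known. After PD0332991 the 3 summits of the 5′ external spacer spanned 596 to 725 FPM, the 2 of internal spacer 2 718 to 732, and single summits stood at 414 FPM in 5.8S and 168 FPM in 18S. The 2 summits of 28S had 195 and 343 FPM. The 18S summit, in a second copy and with a deposited −log10 q of 0, was the lowest listed within the units.

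The siRNA pair listed fewer features of the unit. The siRNA control had 549 and 552 FPM in internal spacer 2, 68.1 to 389 FPM over 4 summits of the 5′ external spacer, 341 FPM in 28S and 18.4 to 52.6 FPM over 4 summits outside the units. After RB siRNA the 4 summits were 945 FPM in internal spacer 2, 617 FPM in 28S, and 9.08 and 11.6 FPM outside the units. No 18S or 5.8S summit was listed in either siRNA library. The 45S units of chromosome 21, which have the same sequence order, gave the libraries the same order as chrUn_GL000220v1. The highest summit in RNA45SN1 had 428, 698, 545 and 933 FPM, and that in RNA45SN2 531, 865, 659 and 1091 FPM. In RNA45SN3 it had 534, 877, 647 and 1109 FPM. The contig chr22_KI270733v1_random gave another order, with PD0332991 at 725 FPM above RB siRNA at 617. Since a short read can fit many copies, these levels are not independent and are no check on the order.

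**Figure D2:**
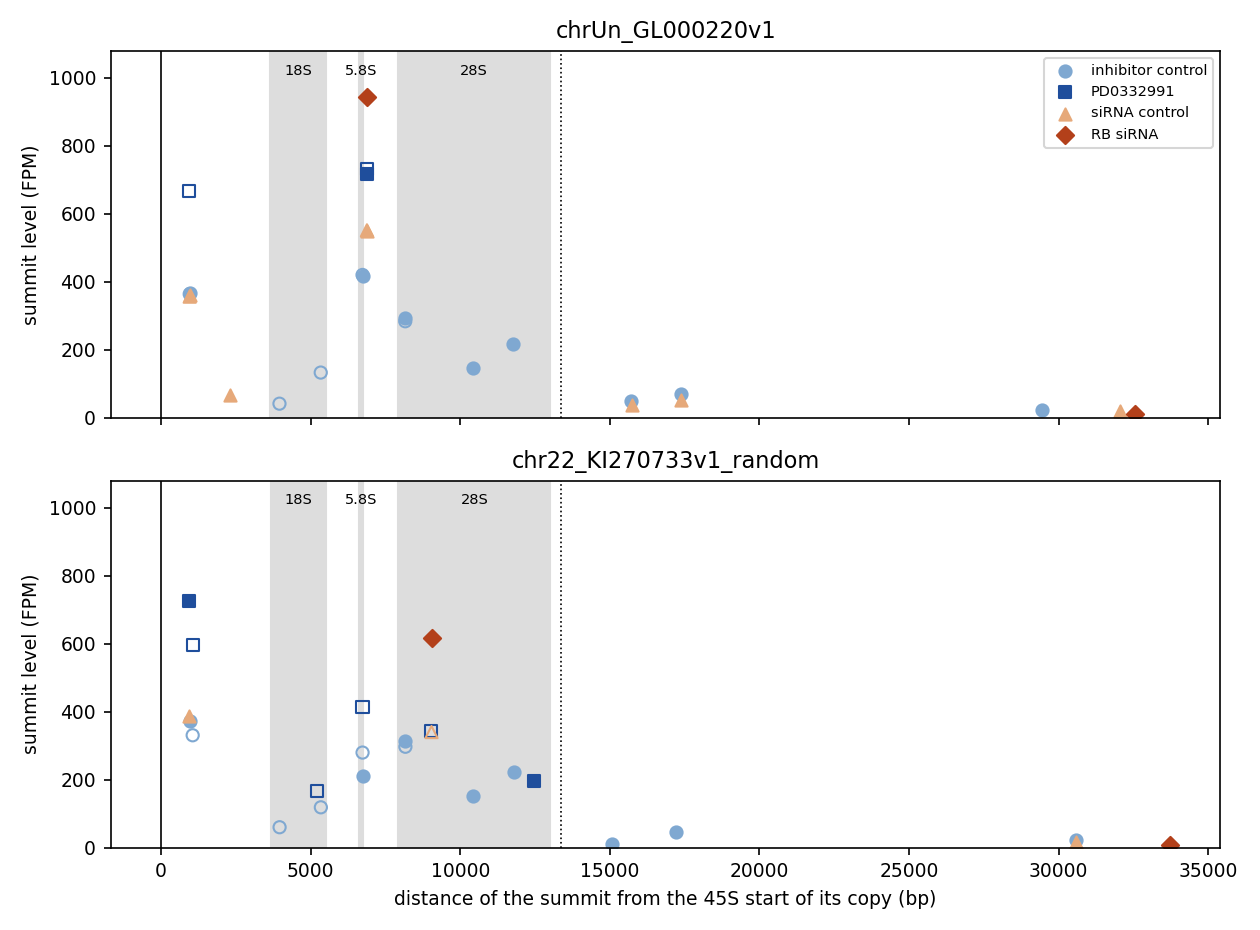
Summit level (vertical axis, FPM) is plotted against distance from the 45S start of the copy (horizontal axis, bp) on both 45S contigs; filled symbols are the first copy, open symbols the second, grey bands the mature RNA genes, and the dotted line the end of the 45S unit. The high summits gather 931 to 1055 bp from the start, in the 5.8S to internal spacer 2 region and in 28S, and summits past the unit stay at or below 71.6 FPM; 1 PD0332991 summit far upstream of the unit is not drawn.

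Outside the 45S contigs the inhibitor control was led by chr21_KI270872v1_alt, RB siRNA by chr17_GL000205v2_random, and both PD0332991 and the siRNA control by chrUn_GL000195v1. The first had 317 FPM (295 to 340) at 45957 in an interval of 45850 to 46090, and the contig was in no other list. After RB siRNA, chr17_GL000205v2_random had 403 FPM (378 to 429; 977 fragments) at 89014. There the authors' fold was only 2.04 over background and the deposited −log10 q was 0. The inhibitor control had 1.22 FPM as the highest of that contig, at 6302, and the other 2 lists did not hold it. These 2 values therefore have no counterpart at the same base in any other library.

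On the unplaced contig chrUn_GL000195v1, by contrast, the highest summit lay at base 32464 in all 3 lists that held it. The level was 198 FPM (180 to 216) in the inhibitor control, 283 (260 to 308) after PD0332991 and 139 (127 to 152) in the siRNA control, and RB siRNA did not list the contig. The 3 intervals do not overlap. The table of genes names no contig, so what lies at 32464 was not annotated here.

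Of 231 contigs in any list, 97 were in 1 list only, 78 in 2, 45 in 3 and 11 in all 4. Of the 97, 30 were in the inhibitor control, 14 in PD0332991, 49 in the siRNA control and 4 in RB siRNA. Apart from chr21_KI270872v1_alt, the highest of these was 37.1 FPM in the siRNA control (chr14_GL000194v1_random, at 28392), 12.6 FPM after PD0332991 and 5.36 FPM after RB siRNA. Most contigs seen in 1 library were low, with a median of 1.42, 4.19, 1.44 and 1.24 FPM.

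Of the 11 contigs in all lists, chr16_KI270728v1_random alone kept its highest summit within 250 bp in every library. It stood at 935761 with 30.5 FPM (24 to 38.2) in the inhibitor control, at 935937 with 37.7 (29.5 to 47.5) after PD0332991, at 935738 with 18.7 (14.4 to 23.8) in the siRNA control and at 935763 with 21.9 (16.4 to 28.6) with RB siRNA. All 4 lie within 199 bp, and the treated libraries overlap their controls.

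The other contigs listed in 4 libraries had their highest summit at different places. On chr14_GL000225v1_random, with 5, 10, 7 and 6 intervals, it had 21.1 FPM in the inhibitor control, 53.9 after PD0332991, 20.1 in the siRNA control and 34.3 with RB siRNA, at 6839, 67551, 112863 and 25648. This is the contig with the most intervals after PD0332991, and the 4 bases are up to 106024 bp apart. On chrUn_GL000216v2, with 3, 2, 6 and 2 intervals, the highest had 11.4, 13.6, 64.4 and 30.1 FPM, so the siRNA control was highest. On chr17_KI270857v1_alt, with 6, 5, 2 and 2 intervals, it had 13.0, 25.1, 12.1 and 21.5 FPM. There both treated libraries were above their controls by the highest summit, which lay at 780017 after PD0332991 and at 769874 in its control. The matched summits of this contig in that pair went the other way, with 4.71 FPM at 2739223 after PD0332991 and 10.6 at 2739207 in its control.

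On chr8_KI270821v1_alt, the highest had 21.1 FPM at 310783 in the inhibitor control, 33.5 at 310779 after PD0332991 and 11.2 at 310780 in the siRNA control, 3 bases within 4 bp of each other. RB siRNA listed 3.30 FPM there, at 7252. On chr7_KI270803v1_alt the values were 2.03, 15.2, 2.30 and 7.02 FPM, with the 2 treated summits at 668733 and 668730. On chr15_KI270905v1_alt, with 13, 1, 15 and 3 intervals, they were 12.6, 1.05, 4.89 and 5.78 FPM, and PD0332991 was lowest. On chr4_KI270925v1_alt they were 2.85, 4.19, 3.74 and 6.60 FPM. On chr14_KI270847v1_alt they were 4.07, 4.19, 5.17 and 0.825 FPM.

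**Figure D3:**
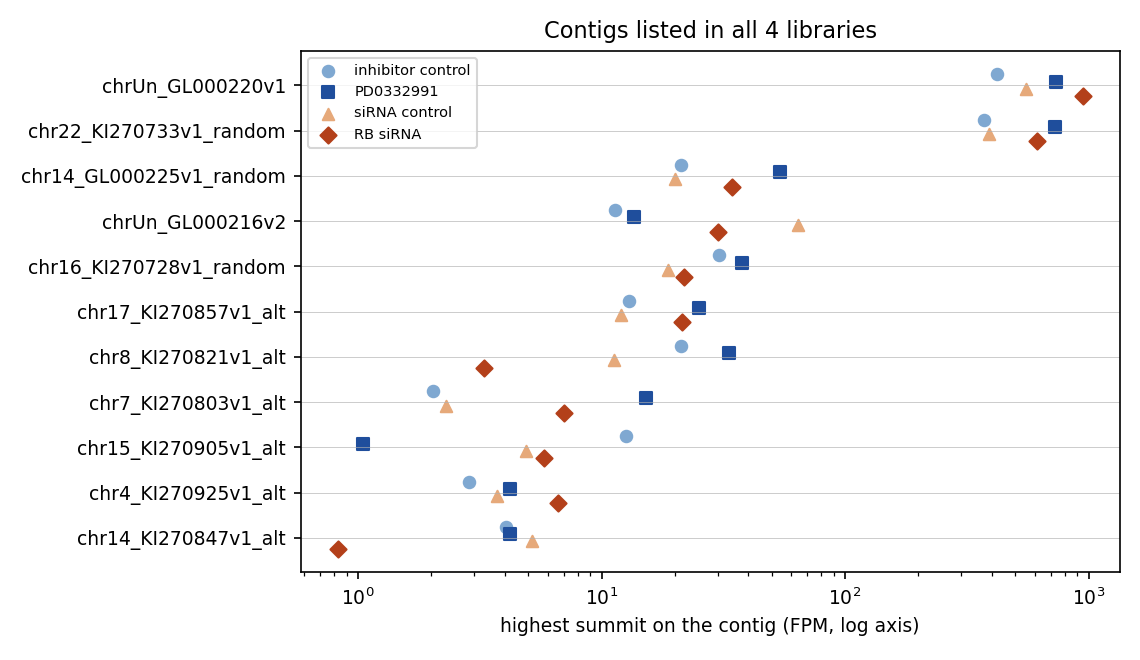
The horizontal log axis gives the highest summit (FPM) of the 11 contigs listed in all 4 libraries, 1 row for each contig and 1 symbol for each library. Both 45S contigs lie between 372 and 945 FPM, and every other contig stays at or below 64.4 FPM.

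The alternate versions of the major histocompatibility complex, the region on chromosome 6 that codes for antigen-presenting proteins, had summits in every list. All 7 were listed in the inhibitor control (42 intervals) and in the siRNA control (31), 1 after PD0332991 (1 interval) and 5 after RB siRNA (10). Their highest summits spanned 12.2 to 17.5 FPM in the inhibitor control (median 15.0), 8.05 to 16.1 in the siRNA control (median 13.2) and 6.60 to 19.4 after RB siRNA (median 15.7). The single PD0332991 value was 4.19 FPM, on chr6_GL000253v2_alt at 131683. Since these are versions of 1 region, their levels are not independent of each other.

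On most of these versions the libraries had summits at nearly the same base. On chr6_GL000250v2_alt the highest had 15.0 FPM at 3160180 in the inhibitor control, 14.9 at 3160130 in the siRNA control and 19.4 at 3160181 with RB siRNA. On chr6_GL000252v2_alt these were 17.5 at 3075336, 12.4 at 3075298 and 16.5 at 3075334. On chr6_GL000255v2_alt the summits near 3083389 had 16.7, 14.7 and 15.7 FPM. On chr6_GL000256v2_alt the summits near 3273361 had 11.4, 9.20 and 10.7 FPM. On chr6_GL000254v2_alt the controls had 13.8 FPM at 3314208 and 8.05 at 3314198. On chr6_GL000251v2_alt they had 16.3 at 3304810 and 16.1 at 3304761, and RB siRNA had 6.60 as its highest, at 1546787. On chr6_GL000253v2_alt the controls had their highest at different bases, with 12.2 FPM at 2925205 and 13.2 at 4388041.

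**Figure D4:**
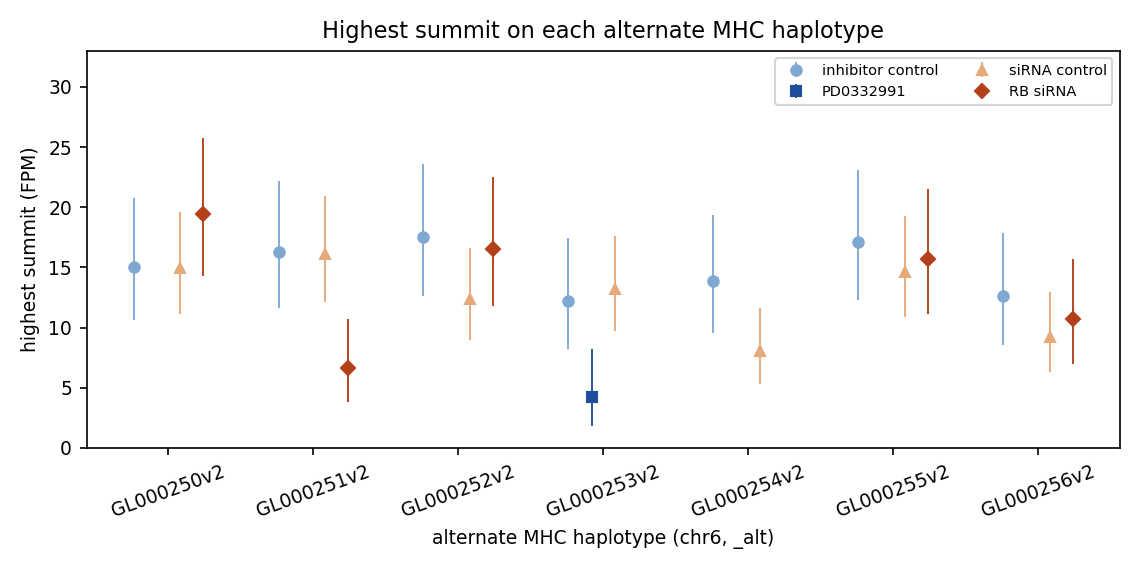
Points show the highest summit (vertical axis, FPM) on each of the 7 alternate versions of the MHC region (horizontal axis) in each library, with 95% Poisson counting intervals as bars. The control values lie between 8.05 and 17.5 FPM, and PD0332991 has a point on 1 version only, at 4.19 FPM.

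The alternate versions of the leukocyte receptor complex on chromosome 19, which codes for receptors of natural killer and other white blood cells, include the contigs named chr19_GL949746v1_alt to chr19_GL949753v2_alt. Any list held 6 of these, and the 4 lists held 4, 1, 5 and 1. Other alternate loci of chromosome 19 were not counted among them. In the inhibitor control the summit had 45.6 FPM on chr19_GL949752v1_alt at 165304, 32.9 on chr19_GL949753v2_alt at 165301 and 48.8 on chr19_GL949746v1_alt at 165137. In the siRNA control chr19_GL949746v1_alt had 21.6 FPM at 164823, chr19_GL949752v1_alt 21.3 at 164990, chr19_GL949747v2_alt 13.2 at 165257 and chr19_GL949751v2_alt 12.1 at 165305. RB siRNA had 18.6 FPM at 165305 on chr19_GL949750v2_alt, and PD0332991 had 19.9 FPM at 112276 on chr19_GL949752v1_alt, another place. The remaining values were low and elsewhere: 0.813 FPM at 1643 on chr19_GL949751v2_alt in the inhibitor control and 2.30 FPM at 89688 on chr19_GL949750v2_alt in the siRNA control. A further alternate locus, chr19_KI270938v1_alt, named after its values were seen, had 30.5 FPM at 165201 in the inhibitor control and 11.8 FPM at 446468 in the siRNA control.

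Some further alternate loci had high summits in 2 or 3 libraries. On chr11_KI270832v1_alt PD0332991 had 66.0 FPM (55.0 to 78.6) at 36598 and the siRNA control 41.7 (35.2 to 49.0) at 36597, with no interval in the other libraries. On chrX_KI270880v1_alt the inhibitor control had 61.4 FPM (52.0 to 72.0) at 5785 and the siRNA control 42.8 (36.2 to 50.3) at 6048, with neither treated library listed. On chr1_KI270762v1_alt the controls had 42.7 and 18.1 FPM. On chr16_KI270853v1_alt, with 14, 8 and 5 intervals in the inhibitor control, the siRNA control and RB siRNA, the values at 515384, 515395 and 515368 were 22.4, 11.5 and 20.2 FPM. On chr7_KI270805v1_alt the inhibitor control had 22.0 FPM, PD0332991 5.24 and the siRNA control 9.20. On chr3_KI270784v1_alt the inhibitor control, PD0332991 and the siRNA control had 5.69, 8.38 and 29.9 FPM. On chr14_KI270846v1_alt the controls had 18.7 and 6.90 FPM.

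The lower named alternate loci were these. On chr17_KI270908v1_alt the values in the inhibitor control, PD0332991 and RB siRNA were 11.0, 9.43 and 8.67 FPM. On chr17_GL000258v2_alt the controls had 8.95 and 5.17 FPM. On chr5_GL339449v2_alt they had 5.29 and 5.17 FPM, on chr1_KI270759v1_alt 4.88 and 1.44, on chr8_KI270900v1_alt 2.44 and 2.01, and on chr16_GL383556v1_alt 0.813 and 0.862. On chr1_KI270763v1_alt the inhibitor control, the siRNA control and RB siRNA had 6.10, 1.15 and 1.24 FPM. On chr15_KI270848v1_alt the inhibitor control, PD0332991 and the siRNA control had 2.03, 2.09 and 1.15 FPM. The siRNA control alone listed chr12_GL383550v2_alt, with 0.575 FPM, and chr9_KI270823v1_alt, with 1.44 FPM.

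Among the other unlocalized contigs, chr17_KI270729v1_random had 4.47 FPM in the inhibitor control, 16.2 after PD0332991 and 48.6 in the siRNA control, at 3 different places. On chr17_KI270730v1_random the controls had 4.88 and 6.90 FPM. On chr22_KI270736v1_random the inhibitor control, the siRNA control and RB siRNA had 3.66, 4.02 and 6.60 FPM, on chr3_GL000221v1_random the inhibitor control and RB siRNA had 6.51 and 1.65, and on chr15_KI270727v1_random the inhibitor control, PD0332991 and the siRNA control had 2.03, 0.524 and 2.30. Among the unplaced contigs, chrUn_KI270743v1 had 19.5, 9.48 and 13.2 FPM in the inhibitor control, the siRNA control and RB siRNA at 156821, 156831 and 156799. On chrUn_KI270744v1 the same 3 libraries had 21.1, 13.2 and 22.3 FPM, and on chrUn_KI270442v1 11.0, 11.5 and 28.9. On chrUn_KI270742v1 the controls had 6.10 and 1.44 FPM and on chrUn_KI270756v1 1.22 and 3.45, and the siRNA control alone listed chrUn_GL000219v1, with 18.4 FPM.

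To compare libraries at the same place, the summits of 2 libraries were paired where they were mutually nearest and at most 250 bp apart, and where their geometric mean was at least 5 FPM. A summit was counted as past the fold where its ratio was at least 1.5-fold from the median ratio of all matched summits of that pair. After PD0332991, 6 of 17 matched contig summits on 12 contigs were higher and 3 lower than that, where of all 904 matched summits 12.8% were higher and 9.73% lower, 22.6% in all. After RB siRNA 0 of 17 on 11 contigs were past the fold, where 15.7% of all 766 were (5.74% higher, 9.92% lower). Between the inhibitor control and the siRNA control 3 of 44 on 28 contigs were higher and 5 lower, where 9.96% of 1235 were higher and 15.2% lower, 25.2% in all. With the median left in the ratio, 7 were higher and 2 lower after PD0332991, 7 higher and 0 lower after RB siRNA, and 22 higher and 0 lower between the controls, where 26.7%, 36.8% and 52.5% of all matched summits were past the fold. The 3 comparisons are pairs of single libraries, and the comparison of the controls shares a library with each of the other 2.

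The median log2 ratio of all matched summits was 0.20 for PD0332991 over its control, 0.45 for RB siRNA over its control and 0.59 for the inhibitor control over the other control. For the contig summits the medians were 0.56, 0.49 and 0.57. Without the 45S contigs they were 0.26, 0.48 and 0.68, so that the contig median under the inhibitor stood apart from that of all summits through the 45S contigs.

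Under PD0332991, 5 of the 7 matched summits on the 45S contigs were past the fold and higher, and their log2 ratios over the inhibitor control were 0.49 to 0.96. On chr22_KI270733v1_random the spacer summit had a log2 ratio of 0.96 (0.84 to 1.09) at 123207 and 0.85 (0.72 to 0.98) at 168409. On chrUn_GL000220v1 the ratios were 0.79 (0.67 to 0.91) at 112303, 0.87 (0.75 to 1.00) at 150327 and 0.80 (0.68 to 0.92) at 156275. Less the median of all matched summits, these 5 ran from 0.586 at 112303, only just past the 1.5-fold cut, to 0.763 at 123207. Apart from that at 123207, their counting intervals reach below the cut. The 2 that were not past the fold, both in mature RNA genes of chr22_KI270733v1_random, had 0.56 (0.41 to 0.71) at 174087 and 0.49 (0.26 to 0.73) at 172563. The 7 share the sequence of 1 repeat unit and are not independent of each other, and the summits at 112303 and 156275 were matched to control summits 147 bp away.

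Of the other 10 matched summits under PD0332991, 1 was higher and 3 lower. The higher one, on chrUn_KI270438v1, had a log2 ratio of 0.95 (−0.30 to 2.27). The lower ones had −1.17 (−2.44 to −0.03) on chr17_KI270857v1_alt at 2739223, −0.81 (−2.22 to 0.47) on chr6_GL000253v2_alt and −0.43 (−1.17 to 0.28) on chr17_KI270860v1_alt. These 4 rest on few fragments and their intervals are wide, and 3 of the 4 include 0. The summit of chrUn_GL000195v1 had 0.52 (0.34 to 0.70) and was not past the fold.

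After RB siRNA all 17 matched contig summits were higher than in the siRNA control before the median was taken off. None was past the fold after it. All 766 matched summits also leaned higher, with a median log2 ratio of 0.45 against 0.49 on contigs. The share of the 766 that were higher is not given here, so the 17 are no result particular to contigs. The 45S summit at 112303 of chrUn_GL000220v1 had a log2 ratio of 0.78 (0.70 to 0.87), its 2 summits at the same base. The summits at 515368 of chr16_KI270853v1_alt and 780257 of chr17_KI270857v1_alt had 0.81 (0.18 to 1.45) and 0.83 (0.22 to 1.45). On the MHC versions the ratios ran from 0.10 (−0.55 to 0.73), at 3083388 of chr6_GL000255v2_alt, to 1.01 (−0.02 to 2.07), at 131706 of chr6_GL000250v2_alt. Only 1 of the 45S summits could be matched, so the spacer and the mature RNA genes had no ratio in this pair.

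Between the controls, 0 of 8 matched summits on the 45S contigs were past the fold on the higher side and 3 on the lower, and 0 of these 3 with the median left in. As the inhibitor control over that of the siRNA, the log2 ratio was −0.40 (−0.51 to −0.29) at 112156, −0.39 (−0.50 to −0.28) at 156128 and −0.06 (−0.19 to 0.06) at 123230. At 106380 it was 0.02 (−0.10 to 0.15). The other summits on these contigs included 3 outside the units, with 0.44 (0.14 to 0.75) at 122812, 0.38 (−0.15 to 0.92) at 152848 and 0.36 (−0.01 to 0.73) at 121114. Less the median of all matched summits, the ratios at 112156 and 156128 were −0.99 and −0.98. These 2 summits were matched to siRNA control summits 147 bp away, at 112303 and 156275. At 106380 and 150352, with both summits at the same base, the ratios less the median were −0.57 and −0.56, not past the fold. On that same scale the 7 ratios under PD0332991 were 0.29 to 0.76. The 2 control libraries thus differed by more at 112156 and 156128 than PD0332991 and its control did at any of the 7. With the median left in, the order is the reverse, at −0.40 and −0.39 against 0.49 to 0.96. The spread between replicates of 1 group is not known. Of other contigs, chr17_GL383563v3_alt (1.47, 0.67 to 2.30), chr7_KI270805v1_alt (1.26, 0.60 to 1.93) and chr1_KI270762v1_alt (1.24, 0.77 to 1.71) were higher in the inhibitor control. Lower relative to the median were chr22_KB663609v1_alt, at −0.11 (−1.03 to 0.77), and chr22_KI270879v1_alt, at −0.00 (−0.82 to 0.79). Both of these intervals include the median of all matched summits, 0.59.

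**Figure D5:**
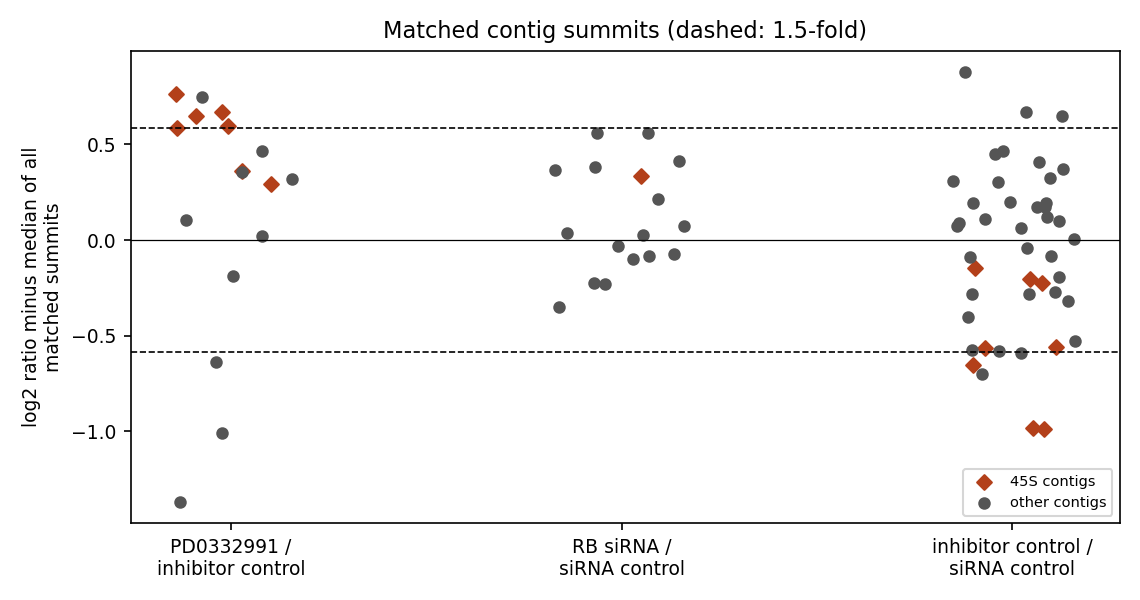
Each point is a matched contig summit; the vertical axis is its log2 ratio minus the median of all matched summits of that pair of libraries, the horizontal axis the pair, and dashed lines mark 1.5-fold (points are spread sideways for view). Under PD0332991, 5 of 7 points of the 45S contigs are above the upper line, after RB siRNA 0 of 17 points are past a line, and between the controls 3 of 8 points of the 45S contigs are below the lower line, which holds only with the median taken off.

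Matched summits were at most 250 bp apart by the rule, so their closeness is no result. Within that limit the median distance of the matched contig summits was 30 bp for PD0332991, 27 bp for RB siRNA and 34 bp between the controls. Of them, 3, 3 and 4 lay at the same base. Taking instead the highest summit of each contig in both lists, wherever it lay, PD0332991 was above its control on 26 of 39 contigs, RB siRNA on 29 of 37, and the inhibitor control above the siRNA control on 64 of 102. Only 10, 9 and 27 of these pairs were at the same position, so most of these differences are between different places of a contig. All matched summits leaned the same way in each pair, with median log2 ratios of 0.20, 0.45 and 0.59. No such count was made on the chromosomes, so these counts are no result particular to contigs.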

How the data were processed

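CUT&Tag was measured in 4 libraries of 22RV1 cells, 1 per group. The submitters' processing notes name bcl2fastq 2.17, Trimmomatic 0.33, Bowtie2 (version given as 2), MACS2 2.1.0 and hg38, with no order or settings. The deposited lists, 1 per library, give for each interval a score, a fold (ratio of treatment to background), a −log10 p, a −log10 q and the summit offset. These are the authors' values and served only for description, ranks and filters inside 1 list.

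Treatment fragments at a summit were solved from its fold and p, taking MACS2's Poisson tail and a pseudocount of 1. At the genome-wide background, 100% of the results came out whole (tolerance 0.05). A window of 10000 bp and a genome of 2.7 Gb were assumed, so FPM levels depend on them. The script was tested on simulated data. Intervals are exact Poisson for levels, exact conditional for ratios and Clopper-Pearson for shares.

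Contigs were named where they had 1 of the 8 highest mean levels, at least 3 intervals in a library, or 45S genes. Chromosome 21 units were given as a side value. The contigs, gene lists and rules were chosen with earlier results of these data known. Lists of U snRNA and protein-coding genes on contigs were not used, since the RefSeq table (GRCh38.p14) names no contigs, and contig sequence was not used here. Some genes of the prostate lineage list are not reported here. Python 3.11.15, NumPy 2.4.6, pandas 2.3.3, SciPy 1.17.1 and Matplotlib 3.10.9 were used.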

Additional observations from a re-analysis of the deposited data

How the results depend on the processing

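No paired analysis was possible because each group held 1 library, and leaving out a replicate was not possible either. With a −log10 q of at least 2, contig intervals numbered 17 in the inhibitor control, 6 after PD0332991, 7 in the control of the siRNA and 2 after RB siRNA, or 8.95%, 18.2%, 8.05% and 15.4% of such intervals. Among summits of at least 5 FPM the shares were 5.17%, 3.59%, 4.68% and 3.88%. By the authors' fold the highest contig summit moved to another site after PD0332991 (fold 7.95) and in the siRNA control (fold 20.2), and not in the other 2. Without the 45S contigs the highest summits were 317, 283, 139 and 403 FPM. Matched contig summits past the fold under PD0332991 numbered 9, against 20 with matching by overlap, 2 at a fold of 2 and 4 without the 45S contigs, an alternative chosen after seeing the data. At a fold of 2, 0 were higher and 2 lower, so none of the higher calls on the 45S contigs remained. No centring left 9 (7 higher, 2 lower) in place of 6 and 3. For RB siRNA the 0 became 2 within 1000 bp, 10 by overlap, 2 with no minimum level and 7 with no centring. For the controls the 8 became 13 within 1000 bp, 24 by overlap, 22 with no centring (all higher), 0 at a fold of 2 and 5 without the 45S contigs. The cause of these changes was not tested. Few fragments at a summit give wide counting intervals.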
